A study of Mus musculus with 18 samples.

Results

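AMPA receptors, the ion channels that carry most fast excitatory transmission in the brain, were followed at the transcript level through 9 genes: the subunit genes Gria1, Gria2, Gria3 and Gria4, and the auxiliary protein genes Cacng2, Cacng3, Cacng8, Cnih2 and Cnih3. They were taken by gene symbol from 3 tables of sequencing read counts of mouse hippocampus, which together list 11738 gene symbols. Of the genes, 7 are listed for the deletion and for tTA::miR132 (Gria3 and Cacng8 are not), and 8 for tTA::miR212 (Cacng3 is not). Values of unlisted genes are not analysed here.

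All animals were of strain C57BL/6, and the labels used here give no age. The deletion group, miR132/212 cKO, carried CaMKII-Cre::miR-132/212f/f, in which Cre recombinase under the promoter of a kinase of excitatory forebrain neurons removes the genes of miR-132 and miR-212; other hippocampal cells are not its target. In the groups tTA::miR132 and tTA::miR212, the tetracycline transactivator tTA drives one of these microRNAs as a transgene; the promoter of tTA is not given in the labels used here. Each group had its own nontransgenic controls (cKO control, miR132 control and miR212 control), which lack the driver as well as the microRNA change, so an effect of Cre or tTA and one of the microRNA cannot be told apart. The labels list 18 samples in 6 groups, with cDNA of 6 animals per group pooled into 3 replicates. The tables hold 14 libraries: 2 per group for the deletion and tTA::miR132, and 3 per group for tTA::miR212. The third library of the other 4 groups is not analysed here.

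AMPA receptors are built from the GluA1 to GluA4 proteins that Gria1 to Gria4 encode. GluA2, once its message has been edited, makes the channel nearly impermeable to calcium, and GluA1 is the subunit best known for activity-dependent delivery to synapses of hippocampal pyramidal cells. The transmembrane AMPA receptor regulatory proteins (TARPs) from the Cacng genes and the cornichons from the Cnih genes bind these channels, help them reach the surface and slow their closing. MicroRNAs such as miR-132 and miR-212 lower the level or translation of messages that pair with bases 2 to 8 of the microRNA, the seed.

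The microRNAs that were deleted or added are shown first because their seeds set which letters can be looked for in the receptor messages. Mature sequences are those of RefSeq on build GRCm38.p6, printed 5′ to 3′ with the seed in capitals.
miR-132-3p: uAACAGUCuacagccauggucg
miR-212-3p: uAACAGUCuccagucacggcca
miR-132-5p: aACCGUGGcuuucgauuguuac
miR-212-5p: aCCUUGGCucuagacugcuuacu
The 3p strands of both microRNAs share the seed AACAGUC, while the 5p strands differ from them and from each other.

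Matches of 2 kinds were searched on the sense strand of the longest annotated 3′ UTR of each gene (GENCODE vM1, which has the same build as the tables, mm9): the letters that pair with bases 2 to 8, and those that pair with bases 2 to 7 followed by A. The kinds overlap, and a stretch can be both. For the shared 3p seed these are GACTGTT, held by 10% of 19915 genes with a 3′ UTR, and ACTGTTA, held by 9.66%. Of the 8 AMPA receptor genes with an annotated 3′ UTR (Cacng8 has none there), Cacng2 held GACTGTT and both Cacng2 and Gria2 held ACTGTTA. These are the stretches around them, read along the message, with the match in capitals.
Cacng2 3p match: tcttatttttttccaGACTGTTaacagaaa
Gria2 3p match: attcattttctataaACTGTTAtggaaaga
The Cacng2 stretch lies at chr15:77822272-77822301 on the minus strand, with the match at base 3293 of the 3401 bases of the 3′ UTR. The Gria2 stretch lies at chr3:80490237-80490266, also on the minus strand, with the match at base 2389 of 3782. The RefSeq model counted for Cacng2 in the deletion and tTA::miR132 tables ends 1875 bases short of this 3′ UTR's end, so it does not hold that stretch.

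Matches to the miR-212-5p seed were GCCAAGG, held by 11.3% of genes, in Gria3 and Cnih3, and CCAAGGA, held by 13%, in Gria1, Gria2, Gria3 and Cacng2. They are shown for the genes with a match to all of bases 2 to 8.
Gria3 212-5p match: aagggggaatgtggaGCCAAGGactccggg
Cnih3 212-5p match: acagaatggctcaggGCCAAGGccagatct
The Gria3 stretch lies at chrX:39022757-39022786 and the Cnih3 stretch at chr1:183389756-183389785, both on the plus strand. The Gria3 3′ UTR searched belongs to a transcript annotated for nonsense-mediated decay, and the printed match is at its base 59 of 2586. Whether the 3′ UTR of a coding Gria3 transcript holds either Gria3 match was not examined. For miR-132-5p, neither CCACGGT (2.88% of genes) nor CACGGTA (1.44%) stands in any of the 8 3′ UTRs. A match is only a run of letters; pairing was not measured here.

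The microRNA genes themselves are not among the genes of the tables analysed here, so they give no check of the labels. The libraries differ in ways that bear on the values below. Total counts ran from 8190899 to 14772907 in the deletion and tTA::miR132 tables, and from 1299369 to 1544923 over the row used for each gene in the tTA::miR212 table. Library 1 of miR132/212 cKO stood apart, with 1047 of 10541 genes at 0 counts against 73 to 120 in the other libraries of its table. Of the 8 dentate granule cell markers, Prox1, Trpc6 and Tdo2 were at 0 in that library, yet its summed level of the list was the highest of the table, at 697 CPM (counts of a gene scaled to a library of 1000000 counts) against 547 to 577 in the other libraries. Among the libraries compared for tTA::miR132, library 2 of miR132 control had the most genes at 0, 485 of 10799, where the other libraries had 92 to 262. The biological coefficient of variation, a measure of the spread between libraries of a group, was 74.2% for the deletion, 60.7% for tTA::miR132 and 8.58% for tTA::miR212. These values cover unlike sets of genes, 10487, 10734 and 4618 in that order. No tTA::miR212 or miR212 control library had more than 1 gene at 0. Markers of excitatory neurons were detected in all 14 libraries, with summed levels of 3518 to 8472 CPM. In bulk tissue, fewer cells of a type and less RNA per cell cannot be told apart.

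The first comparison set the loss of both microRNAs against its controls. Gria1 and Cnih2 were higher in both deletion libraries than in either control library, Cnih3 was lower in both, and Gria2 was at nearly the same level in the 2 groups. None of the 7 listed genes passed the test, edgeR's quasi-likelihood test with Benjamini-Hochberg adjustment over all genes at 0.05, and their adjusted p was 0.999 throughout. No gene of the table was called either (0% of 10487 genes tested). At an unadjusted p under 0.05 there were also 0 of the 7, against 0.839% of all genes.

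Gria1 (chromosome 11, 56825193 to 57143746, plus strand, mm9) had 990 and 1117 CPM in miR132/212 cKO libraries 1 and 2 against 889 and 852 in cKO control libraries 1 and 2. Both deletion libraries lay above both controls, and the fitted log2 fold change was 0.30 (SE 0.16, 95% interval -0.10 to 0.69, unadjusted p = 0.118 in edgeR). Without miR132/212 cKO library 1 it was 0.35, and the adjusted p was 0.814 in edgeR. In the authors' deposited table the q-value of Gria1 was 4.51e-13. A q under 0.05 was common in the authors' deposited table, at 54.3% of its genes. Of the 7 listed here 3 had one in the authors' deposited table, the others being Cacng3 at 0.000417 and Cnih3 at 0.000585.

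Gria2 (chromosome 3, 80488858 to 80606713, minus strand) had 1785 and 1946 CPM with the deletion against 1797 and 1950. The libraries of both groups covered the same range. The log2 fold change was 0.02, with a 95% interval of -0.34 to 0.37, so that differences of about that size in either direction lie within the interval.

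Gria4 (chromosome 9, 4417893 to 4796234, minus strand), the subunit gene used mainly by interneurons and during development in this tissue, had 5.42 and 84.9 CPM against 88.4 and 70.3. The low value belongs to the deletion library that stood apart: 51 counts against 576 to 834 in the other libraries. Its log2 fold change was -0.82 with an SE of 1.09. Without miR132/212 cKO library 1 it was 0.09, and with that library as the only deletion library it was -3.80 (adjusted p = 9.68e-11 in edgeR). The direction of Gria4 therefore rests on a single library. Summed interneuron markers (10 of 11 listed) were 2156 to 2522 CPM with the deletion and 2202 to 2615 in controls, and their part in the Gria4 value was not tested.

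Among the TARPs, Cacng2 (stargazin, the founding member; chromosome 15, 77824053 to 77949710, minus strand) had 164 and 77.2 CPM with the deletion against 78.2 and 140. Its groups overlapped over a range as wide as that between replicates, and the log2 fold change of 0.18 turned to -0.51 without miR132/212 cKO library 1. Cacng3 (chromosome 7, 129815258 to 129912905, plus strand), a close relative of Cacng2 found in cortex and hippocampus, had 111 and 68.6 CPM against 56.4 and 84.5. Its log2 fold change of 0.38 (SE 0.44) was -0.05 without that library.

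Of the cornichons, Cnih2 (chromosome 19, 5092871 to 5098418, minus strand), an abundant partner of hippocampal AMPA receptors, had 584 and 541 CPM with the deletion against 536 and 523. Both deletion libraries lay just above both controls, by less than replicates of a group differed, and the log2 fold change was 0.11 (SE 0.19), or 0.02 without library 1. Cnih3 (chromosome 1, 183282759 to 183390772, plus strand), its close relative, had 84.5 and 113 CPM against 129 and 155. Both deletion libraries lay below both controls, with a log2 fold change of -0.51 (95% interval -1.27 to 0.25, unadjusted p = 0.153 in edgeR), or -0.35 without library 1.

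In all, 2 of 7 genes had both deletion libraries above both controls, where 14.3% of all genes did, and 1 of 7 had them below, where 17.9% did. Without miR132/212 cKO library 1 these counts were 2 (35.3% of all genes) and 2 (33%), with Cacng2 joining Cnih3. The median log2 fold change over the 7 genes was 0.11, beside -0.03 over all genes. Its sign was not stable: it was 0.02 without miR132/212 cKO library 1, 0.21 without library 2 and -0.04 without cKO control library 1.

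Of the summed cell type markers, those of excitatory neurons and choroid plexus did not overlap between the groups. Summed markers of CA pyramidal cells, dentate granule cells, interneurons, astrocytes, oligodendrocytes and their precursors, microglia and endothelium overlapped. Among single genes, 14.3% had both deletion libraries above both controls and 17.9% had them below. The summed level of 7 excitatory neuron markers was 5578 and 4254 CPM with the deletion against 3518 and 4042, above controls in both libraries, although 4 of the 7 markers had a log2 fold change below 0. Summed choroid plexus markers were 512 and 1759 CPM against 4500 and 5029, and all 8 listed markers were below 0. Otx2, one of their defining genes, was at 0 in both deletion libraries. The part of these marker differences in the values of Gria1, Cnih2 and Cnih3 was not tested.

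**Figure D1:**
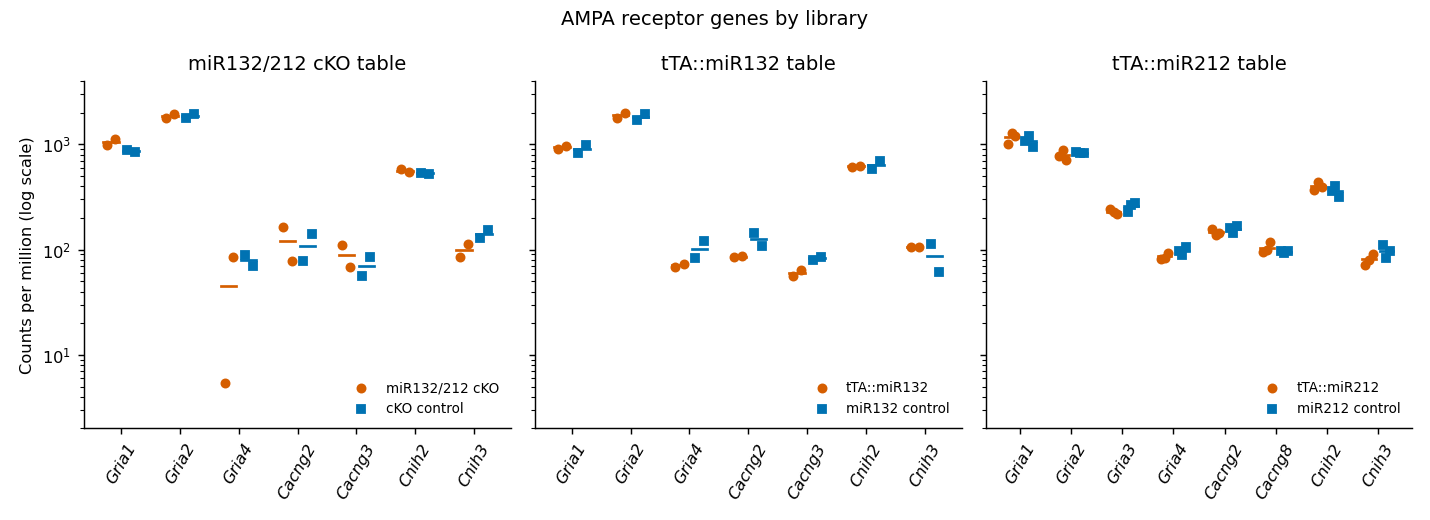
CPM (log axis) of each AMPA receptor gene in every library, in 1 panel per table. Circles are libraries of the deletion or transgenic group, squares are their nontransgenic controls, and short lines are group means; the lone circle at 5.42 is Gria4 in miR132/212 cKO library 1.

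The second comparison asked what added miR-132 does to the same genes. Gria4, Cacng2 and Cacng3 were lower in both tTA::miR132 libraries than in either control, while Gria1 and Gria2 were at the level of controls. None of the 7 listed genes passed edgeR's test (adjusted p 0.997 to 0.999) and none had an unadjusted p under 0.05, beside 0% and 2.82% of the 10734 genes tested.

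Gria1 had 902 and 975 CPM in tTA::miR132 libraries 1 and 2 against 831 and 985 in miR132 control libraries 1 and 2. Gria2 had 1794 and 1994 CPM against 1704 and 1955. For both genes the controls spanned a range wide enough to overlap the transgenic libraries. The log2 fold change was 0.00 for Gria1 (95% interval -0.33 to 0.34) and 0.00 for Gria2 (-0.28 to 0.29).

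Gria4 had 68.2 and 73.2 CPM with tTA::miR132 against 82.8 and 121. The transgenic libraries were close to each other and below both controls. The log2 fold change was -0.58 (SE 0.38, 95% interval -1.40 to 0.24, unadjusted p = 0.150 in edgeR). Without miR132 control library 2, which held the highest value and had the most genes at 0 in its table, it was -0.24, and without control library 1 it was -0.85.

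Cacng2 had 85.8 and 86.3 CPM with tTA::miR132 against 145 and 109. It was below both controls and had the lowest unadjusted p of the 7 genes in this comparison, at 0.0938 in edgeR. Its log2 fold change was -0.60 (SE 0.33, 95% interval -1.32 to 0.12), and leaving out single libraries gave -0.77 to -0.40. Cacng3 had 56.0 and 64.4 CPM against 79.9 and 85.9, again below both controls, with a log2 fold change of -0.51 (SE 0.39). So both TARP genes listed had the same order of groups. Of these, Cacng2 holds the printed 3p match, and none of the motifs searched stands in the 3′ UTR of Cacng3. Gria2 also holds a 3p match and had a log2 fold change of 0.00. Gria4 holds none of the motifs in its 3′ UTR and had -0.58. The part of the matches in these values was not tested.

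Cnih2 had 609 and 626 CPM against 586 and 703, with a log2 fold change of -0.11 (SE 0.17). Cnih3 had 107 and 107 CPM against 113 and 61.1, and its log2 fold change of 0.26 (SE 0.38) was -0.09 without control library 2, which held the low value, and 0.74 without control library 1. The groups overlapped for both cornichons.

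Of the 7 genes, 3 had both tTA::miR132 libraries below both controls, where 14.2% of all genes did, and 0 of 7 had them above, where 18.7% did. Their median log2 fold change was -0.11, beside -0.00 over all genes, and -0.25 without miR132 control library 1. By the authors' deposited table, 5 of the 7 had a q under 0.05, where 53.1% of all genes did. Those q-values of the authors' deposited table were 1.31e-06 for Cacng2, 5.28e-05 for Cacng3, 0.00761 for Gria4, 0.00764 for Cnih2 and 0.0213 for Gria2.

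Beside these, summed excitatory neuron markers were 3711 and 4122 CPM with tTA::miR132 against 4186 and 4404, lower in both libraries, with 3 of the 7 markers above 0 and a median log2 fold change of -0.07. Summed markers of CA pyramidal cells, which are also excitatory neurons, went the other way, at 856 to 871 CPM against 823 to 843, with 4 of 8 markers above 0. Summed oligodendrocyte markers were 4416 to 4570 CPM against 3611 to 3825, and those of oligodendrocyte precursors 379 to 380 against 288 to 362. Summed markers of dentate granule cells, interneurons, astrocytes, microglia, endothelium and choroid plexus overlapped between the groups. Among single genes, 18.7% had both tTA::miR132 libraries above both controls and 14.2% had them below. The part of the marker differences in the values of Gria4, Cacng2 and Cacng3 was not tested.

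**Figure D2:**
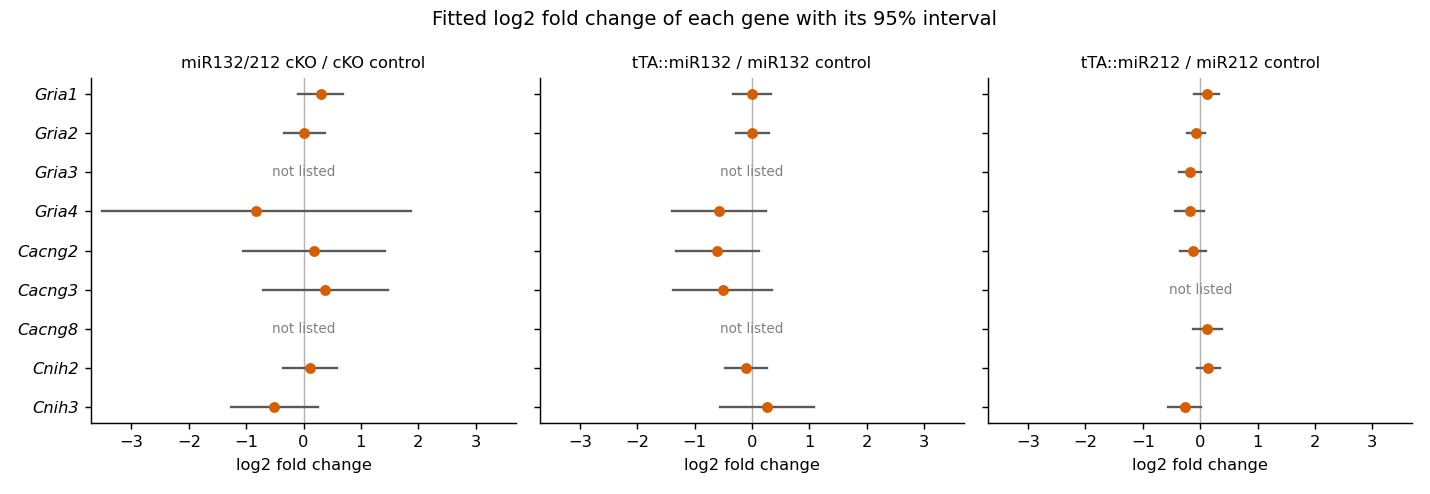
Fitted log2 fold change of each gene against its own controls (points) with 95% intervals (lines), in 1 panel per comparison. Every interval crosses 0; the widest is that of Gria4 with the deletion, -3.51 to 1.87, and the tTA::miR212 intervals are the narrowest.

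The third comparison asked the same of added miR-212, with 3 libraries per group and a far lower biological coefficient of variation over all its genes. This did not hold for each gene: the libraries of Gria1 lay no closer together than in the other comparisons. No group stood apart from its controls for any of the 8 listed genes: the libraries overlapped in each, where 6.47% of all genes had all transgenic libraries above and 4.96% had all below. None of the 8 passed edgeR's test (adjusted p 0.901 to 0.939) and none had an unadjusted p under 0.05, beside 0% and 5.63% of the 4618 genes tested. Their q-values in the authors' deposited table were 0.935 to 1, and 0.0866% of all genes were under 0.05.

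Gria1 had 1006, 1297 and 1190 CPM in tTA::miR212 libraries 1 to 3 against 1075, 1190 and 949 in miR212 control libraries 1 to 3. Its log2 fold change was 0.11 (SE 0.10, 95% interval -0.11 to 0.33). Gria2 had 782, 879 and 718 CPM against 841, 823 and 829. The 3 controls of Gria2 lay close together, inside the range of the transgenic libraries, and the log2 fold change was -0.08 (95% interval -0.23 to 0.08).

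Gria3 (chromosome X, 38754031 to 39031778, plus strand), whose protein pairs mostly with GluA2 in principal neurons, is listed in this table alone. It had 244, 230 and 216 CPM against 229, 266 and 280. Transgenic library 1 lay above control library 1, so the groups overlapped. The log2 fold change was -0.18 (SE 0.09, 95% interval -0.37 to 0.02, unadjusted p = 0.0698 in edgeR). The row with the highest mean count for Gria3 is a transcript annotated for nonsense-mediated decay. Its mean count of 337 hardly differs from the 336 of the longest listed coding transcript, whose log2 fold change was also -0.18. Over all 6 Gria3 transcripts listed, which share reads, the log2 fold change ran from -0.19 to -0.17.

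Gria4 had 82.0, 83.5 and 93.6 CPM against 97.1, 89.3 and 106, with a log2 fold change of -0.18 (SE 0.12). The highest transgenic library lay above the lowest control, and 107 to 140 counts stood behind each value.

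Cacng2 had 158, 137 and 143 CPM against 160, 145 and 168, with a log2 fold change of -0.12 (95% interval -0.35 to 0.10). Cacng8 (chromosome 7, 3394459 to 3415366, plus strand), a TARP that is typical of hippocampus, had 94.3, 99.7 and 119 CPM against 96.4, 92.4 and 97.7. Its log2 fold change of 0.12 (SE 0.12) was 0.01 without transgenic library 3, which held the highest value.

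Cnih2 had 366, 443 and 391 CPM against 360, 405 and 316, with a log2 fold change of 0.14 (SE 0.10). Cnih3 had 71.3, 79.6 and 91.6 CPM against 112, 83.1 and 96.2. For Cnih3, 2 of the 3 transgenic libraries lay below all controls, and the log2 fold change was -0.27 (SE 0.14, 95% interval -0.56 to 0.02, unadjusted p = 0.0627 in edgeR), the lowest unadjusted p of the 8 genes. Without control library 1, which held its highest value, the log2 fold change of Cnih3 was -0.16 (unadjusted p = 0.298 in edgeR), and leaving out single libraries gave up to -0.37. The second Cnih3 transcript listed had -0.29 (SE 0.16).

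Several of these small values moved by more than 1.5 times when 1 library was left out. Without control library 3, Gria1 was 0.03, Cnih2 0.06, Gria3 -0.11, Gria4 -0.11 and Cacng2 -0.07. Without transgenic library 2, Gria1 was also 0.03, Cnih2 0.07, Cacng2 -0.07 and Gria2 -0.15, and without transgenic library 3, Gria2 was -0.01 and the median over the 8 genes -0.06. Larger values arose as well: Gria1 was 0.20 without transgenic library 1 and 0.19 without control library 2, Cnih2 was 0.23 without control library 2, and Cacng8 was 0.18 without transgenic library 1. The direction of each of the 8 genes was the same whichever single library was left out.

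Over the 8 genes the median log2 fold change was -0.10, beside 0.00 over all genes. Summed microglial markers were 311 to 366 CPM with tTA::miR212 against 282 to 307, from 3 markers listed, and the part of this in the values above was not tested. Excitatory neuron sums overlapped, at 7584 to 8289 CPM against 8137 to 8472, as did the sums of the other lists. Choroid plexus sums, from 2 markers listed, differed widely between libraries of a group. They were 852, 47.9 and 749 CPM in tTA::miR212 libraries 1 to 3 against 840, 763 and 282 in miR212 control libraries 1 to 3. The part of this difference in the values above was not tested either.

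Levels were compared between genes as CPM per kilobase of transcript. In the deletion and tTA::miR132 tables lengths are those of the longest GENCODE coding transcript, since the tables give no exons, while the tTA::miR212 table names its own transcripts. Cnih2, a short message, had the highest level in each of the 6 groups, from 291 ± 36.0 (SD, n = 3) in miR212 control to 521 ± 66.8 (n = 2) in miR132 control. Gria2 came next in the 4 groups of the deletion and tTA::miR132 tables, at 263 to 272, followed by Gria1 at 157 to 190, with no overlap between their libraries in any of these groups.

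Below these, Cacng3 and Cnih3 followed in the deletion and tTA::miR132 tables, at 39.5 to 58.8 and 32.6 to 53.3. Their order changed between groups, and their libraries overlapped in cKO control and tTA::miR132. In miR132 control, Cnih3 also overlapped with Cacng2. Cacng2 (15.6 to 23.0) and Gria4 (8.30 to 18.8) were lowest by these lengths, overlapping in 3 of those 4 groups. The Cacng2 model counted there ends 1875 bases short of the transcript whose length was used. Its level per length may therefore be understated, and its order and overlaps with Gria4 and Cnih3 are not settled.

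In the tTA::miR212 table Gria1 was above Gria2, at 216 ± 27.2 and 198 ± 22.3 (n = 3 each) against 114 ± 11.6 and 119 ± 1.38 for Gria2. This order is opposite to that of the other tables, and it holds in control libraries as well. The tables differ in mice, libraries, annotation and the choice of rows, and these cannot be told apart. Cacng8 stood between them at 157 ± 19.7 and 144 ± 4.21. Its listed transcript of 663 bases has no annotated UTR, so this level per length is not comparable with the others. Gria3 followed at 44.4 ± 2.68 and 49.9 ± 5.09, then Cnih3, Cacng2 and Gria4. Neighbouring genes in this order did not overlap, except Cnih3 and Cacng2 in the transgenic group.

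**Figure D3:**
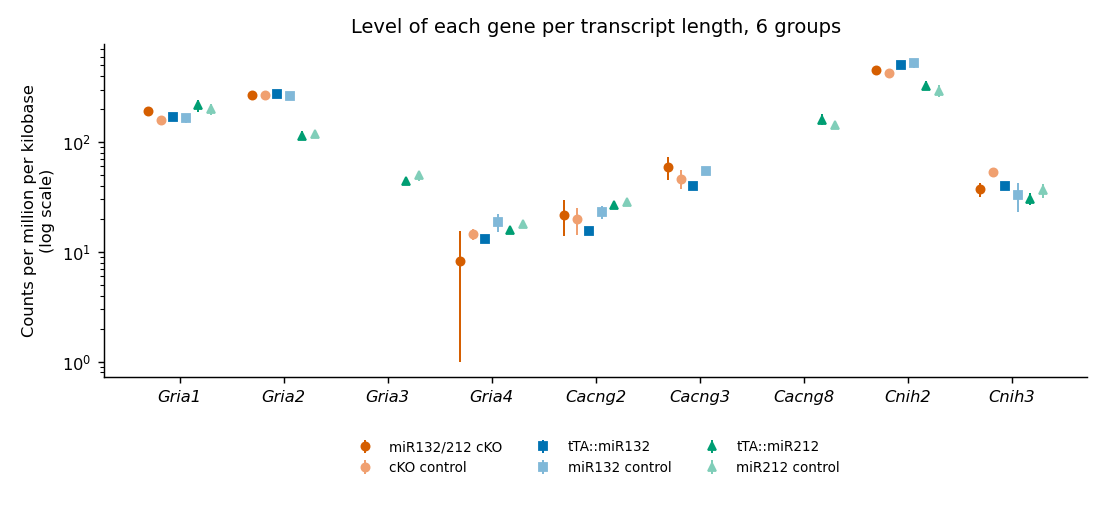
Level of each gene in CPM per kilobase (log axis) in the 6 groups; points are group means and lines span the lowest to the highest library. Cnih2 is highest in every group, and the triangles of the tTA::miR212 table place Gria1 above Gria2 where the circles and squares of the other tables place it below.

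Ratios of 2 genes within a library do not depend on how libraries are scaled. There were 13 such ratios over the 3 tables, tested with a two-sided exact permutation test over libraries, whose smallest possible p is 0.333 with 2 libraries per group and 0.1 with 3. None can therefore pass 0.05, and p adjusted over the 13 was 0.722 to 1.

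The ratio of Gria1 to Gria2 counts was 0.555 and 0.574 with the deletion against 0.495 and 0.437. Both deletion libraries were above both controls, with a difference of 0.28 on the log2 scale (exact permutation p = 0.333, the smallest possible), and 0.30 without miR132/212 cKO library 1. With tTA::miR132 the same ratio was 0.503 and 0.489 against 0.488 and 0.504, a difference of -0.00. With tTA::miR212 it was 1.29, 1.47 and 1.66 against 1.28, 1.45 and 1.15, overlapping, with a log2 difference of 0.19 (exact permutation p = 0.2).

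The ratio of Cnih3 to Cnih2 was 0.145 and 0.208 with the deletion against 0.240 and 0.297, lower in both libraries, with a log2 difference of -0.62 (exact permutation p = 0.333). Without miR132/212 cKO library 1 the difference was -0.36. With tTA::miR212 it was 0.196, 0.180 and 0.235 against 0.311, 0.206 and 0.305, a log2 difference of -0.41 with overlap (exact permutation p = 0.2). With tTA::miR132 it was 0.176 and 0.171 against 0.193 and 0.0870, where the controls lay on both sides.

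Gria4 to Gria2 was 0.0380 and 0.0367 with tTA::miR132 against 0.0486 and 0.0621, lower in both libraries, with a log2 difference of -0.56. The same ratio overlapped with the deletion and with tTA::miR212. Cacng3 to Cacng2 overlapped in both tables that list these genes.

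**Figure D4:**
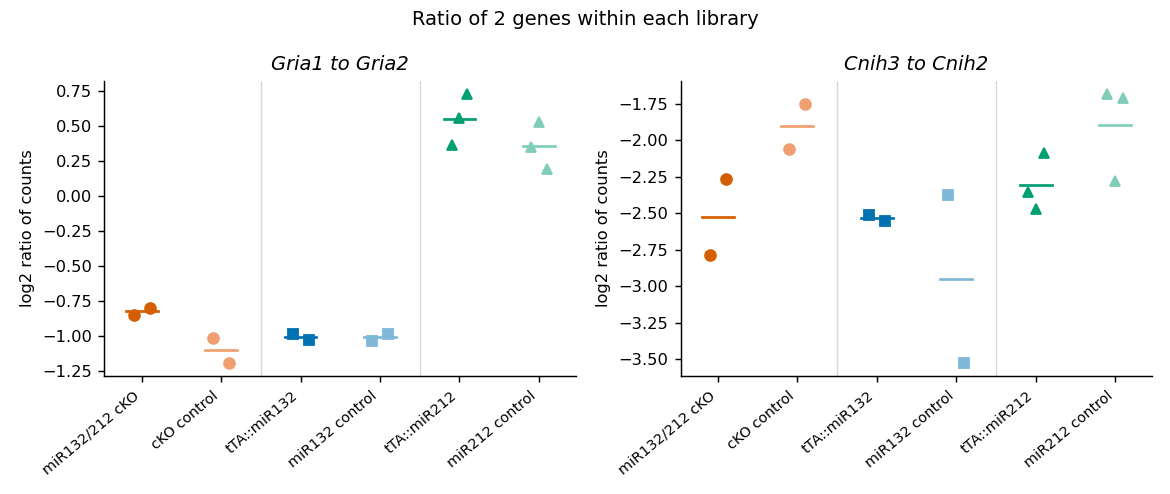
Log2 ratio of counts within each library for Gria1 to Gria2 (left) and Cnih3 to Cnih2 (right) in the 6 groups; points are libraries and lines are group means. The deletion libraries lie above their controls on the left and below them on the right, and the tTA::miR212 table lies above 0 on the left where the other tables lie below.

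Other genes of the receptor's life cycle were counted from lists of its further auxiliary proteins, its trafficking and scaffold proteins, its RNA editing and splicing factors, the related kainate and delta receptors, and the cornichons of the general secretory pathway. In none of these lists was a gene called in any comparison. The 2 TARP relatives of the skeletal muscle calcium channel, Cacng1 and Cacng6, are listed in no table.

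Of 22 further auxiliary proteins, 18 were tested with the deletion, 10 above 0 and 8 below, with a median log2 fold change of 0.11 beside -0.03 over all genes. The lowest p belonged to Shisa9, a receptor partner that alters desensitisation, with 135 and 104 CPM against 47.6 and 83.9 (log2 fold change 0.89, SE 0.42). With tTA::miR132, 8 of 18 were above 0 and the median was -0.08; Shisa7 had 107 and 107 CPM against 87.7 and 43.8 (0.66, SE 0.41). With tTA::miR212, 7 of 13 were above 0 and the median was 0.01. There Olfm1, a secreted olfactomedin found with AMPA receptors, had 1067, 963 and 950 CPM against 1100, 1084 and 1186, below all controls (log2 fold change -0.19, SE 0.07, unadjusted p = 0.0120, adjusted p = 0.801 in edgeR). Nptx1, a pentraxin that clusters the receptors from outside, had 708, 693 and 799 CPM against 836, 823 and 814 there, also below all controls (-0.18, SE 0.07, unadjusted p = 0.0214, adjusted p = 0.818 in edgeR).

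Of 26 trafficking and scaffold genes, 22 were tested with the deletion, 13 above 0 and 9 below, with a median of 0.10. Dlg4, the postsynaptic scaffold PSD-95 that anchors TARPs, had 279 and 236 CPM with the deletion against 128 and 186, above both controls (log2 fold change 0.74, SE 0.30, unadjusted p = 0.0471, adjusted p = 0.999 in edgeR). It was the only gene of that list with an unadjusted p under 0.05 there. With tTA::miR132, 9 of 23 were above 0 and the median was -0.11, and Dlg1 and Cpne6 had an unadjusted p under 0.05. With tTA::miR212, 8 of 21 were above 0 and the median was -0.01, and Dlg1 was the gene with an unadjusted p under 0.05.

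Dlg1, the scaffold SAP97 that binds the tail of GluA1, had 57.0 and 67.3 CPM with tTA::miR132 against 104 and 170. Both libraries were below both controls, with a log2 fold change of -1.19 (SE 0.37, unadjusted p = 0.00755, adjusted p = 0.997 in edgeR). With tTA::miR212 it had 130, 115 and 108 CPM against 148, 139 and 133, again below all controls, with a log2 fold change of -0.26 (SE 0.11, unadjusted p = 0.0276, adjusted p = 0.845 in edgeR). With the deletion, where the rule for naming genes did not pick it, Dlg1 had 49.9 and 25.3 CPM against 65.2 and 81.4 (log2 fold change -0.93, SE 0.54); this last value was looked up after the others were seen. Dlg1 was thus below controls in each comparison and passed the threshold in none. Of all genes, 17.9% lay below all controls with the deletion, 14.2% with tTA::miR132 and 4.96% with tTA::miR212. The deletion removes the microRNAs that the transgenes add. Cpne6, a calcium sensor of spines, had 501 and 506 CPM with tTA::miR132 against 417 and 298 (0.45, SE 0.20).

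Of the editing and splicing factors, 8, 7 and 5 of 11 were tested with the deletion, tTA::miR132 and tTA::miR212, and 4, 4 and 3 of these were above 0. Khdrbs3, a splicing regulator of the STAR family, had 508 and 301 CPM with the deletion against 242 and 267 (log2 fold change 0.70, SE 0.32). Kainate and delta receptor genes numbered 8, 8 and 5 tested, with 4, 3 and 4 above 0. Among them Grik5, a kainate receptor subunit, had 173 and 173 CPM with tTA::miR132 against 192 and 330 (-0.64, SE 0.29, unadjusted p = 0.0452, adjusted p = 0.997 in edgeR). Of the secretory cornichons, Cnih4 had 94.6 and 50.8 CPM with the deletion against 38.1 and 40.9 (0.92, SE 0.52). Its higher value, like that of Khdrbs3, belongs to the deletion library that stood apart. For Shisa7, Dlg1, Cpne6 and Grik5, the control value farther from the tTA::miR132 libraries was that of miR132 control library 2. That library had the most genes at 0 in its comparison, and values without it are not given for these genes.

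The genes whose level followed that of Gria1 and Gria2 most closely were sought over the 14 libraries, as Pearson's r of log2(CPM + 1) centred on the control mean of each table, among 4104 genes. For Gria1 they were Pcdh20, a protocadherin (r = 0.85), 4933426M11Rik (0.82) and Dock4, an exchange factor for a small GTPase (0.76). For Gria2 they were Tardbp, an RNA-binding protein (0.89), Arglu1 (0.83) and Sfrs18 (0.78). Gria1 and Gria2 followed each other with r = 0.26. These points share libraries and their depth, and the values describe these libraries alone.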

How the data were processed

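Polyadenylated hippocampal RNA was sequenced and aligned to mm9 by Bowtie 0.12.7, per the series design text; Cufflinks 1.2 is named there for abundances that were not used. No source used here gives the counting tool, the annotation or the strand setting. The deposited counts are whole reads per RefSeq gene (deletion, tTA::miR132) or per Ensembl transcript (tTA::miR212), as the values show and per the file headers. The authors' deposited q-values (adjusted p-values) were only set beside the new tests. A further 14 columns of normalized values were not used. Columns are numbered within a group while samples carry letters, so libraries were tied to groups only. The transcript with the highest mean count stood for a gene under tTA::miR212, where reads of overlapping transcripts are counted more than once.

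CPM are counts scaled to 1000000 over the listed genes of a library. Each table was fitted alone in R 4.3.3 with edgeR 4.0.16 (quasi-likelihood, TMM, filterByExpr, robust), adjusted over all genes tested; all 7, 7 and 8 listed AMPA receptor genes passed the filter. The code was tested on simulated data. Alternatives used DESeq2 1.42.0, limma 3.58.1 (voom), other scaling, no filter, a replicate block, all or summed transcripts, and left-out libraries. Ratios had 0.5 added to each count. The genes and lists were chosen with earlier results of these data known. Named were all 9 AMPA receptor genes, up to 3 genes per list and comparison with the smallest p (a few are printed), and the 3 genes most like Gria1 and Gria2, of at least 10 CPM. Totals cover listed genes, not full depth, and p-values measure the spread between libraries, which may be technical.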

Additional observations from a re-analysis of the deposited data

How the results depend on the processing

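None of the AMPA receptor genes was called under any alternative, with 1 exception: Gria4 with the deletion when miR132/212 cKO library 2 was left out (log2 fold change -3.80), a fit that rests on library 1 and assumes that it varies like the controls. Leaving out single libraries gave 0 to 1 genes of the 7 called for the deletion. Over all genes, with 0 called in each comparison, DESeq2 called 12 for the deletion and 43 for tTA::miR132, limma-voom called 1 and 3, and leaving out single libraries gave 1 to 4527, 0 to 111 and 0 to 18 for the deletion, tTA::miR132 and tTA::miR212. The 4527 came without miR132/212 cKO library 2, the 8 without its library 1, the 111 without miR132 control library 1 and the 18 without tTA::miR212 library 1. With a replicate block by library number, 0, 1 and 1 genes were called. Deviations of same-numbered libraries had small correlations: 0.017 and 0.0092 for the deletion and tTA::miR132, and -0.076 to 0.021 for tTA::miR212. With 2 libraries per group there is a single such value per comparison. It cannot settle whether the numbers mark pairs, which the labels do not say. The cause of the differences in genes called was not tested.

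Log2 fold changes changed sign in 17 cases. For the deletion, Gria2 was -0.00512 with raw totals. Leaving out single libraries gave -0.0444 to 0.0785 for Gria2, -3.80 to 0.0855 for Gria4, -0.507 to 0.662 for Cacng2 and -0.0484 to 0.717 for Cacng3, with the sign changed without deletion library 1 for the last 3 genes, without control library 1 for Gria2 and Cacng2, and without deletion library 2 for Gria2 (-0.00261). With tTA::miR132, Gria1 and Gria2 were -0.00544 and -0.00211 in DESeq2, and -0.00553 and -0.00214 with RLE size factors. Leaving out single libraries gave -0.138 to 0.164 for Gria1, -0.114 to 0.142 for Gria2, -0.254 to 0.0655 for Cnih2 and -0.0910 to 0.740 for Cnih3. There the sign changed without control library 1 or tTA::miR132 library 2 (Gria1, Gria2) and without control library 2 (Cnih2, Cnih3). Non-overlapping ratios, 1 of 4 for tTA::miR132 and 0 of 5 for tTA::miR212, numbered 1 to 4 and 0 to 2 with single libraries left out, where fewer libraries overlap less often. With the deletion, those of Gria1 to Gria2 and Cnih3 to Cnih2 did not overlap, and the number was 3 whichever single library was left out. Leaving out deletion library 1 from the count of genes below controls was chosen after seeing the data and moved it from 1 to 2. The median log2 fold change with single libraries left out was -0.0444 to 0.207 for the deletion, -0.254 to -0.0910 for tTA::miR132 and -0.119 to -0.0637 for tTA::miR212.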
